A study of Sus scrofa with 4 samples.

Results

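B cell genes were followed in the thymus of pigs with a targeted IL2RG gene and of wild type pigs. These were the immunoglobulin heavy chain gene LOC396781 (IGHG, the gene of the IgG heavy chain), CD79A, MS4A1, CD72, BLNK and SYK. Their probes were taken as every probe on the porcine array of Agilent whose RefSeq accession belongs to 1 of the 6 genes. This gave 20 of the 43603 probes on the array, of which 13 belong to LOC396781, 2 to CD72, 2 to SYK and 1 each to CD79A, MS4A1 and BLNK. Thymus RNA of Minnesota miniature swine was hybridised to 4 arrays in 1 colour (Cy3), 2 from pigs labelled IL2RG+/- (called KO here, as the study does) and 2 from wild type pigs (WT). The KO pigs came from cultured cells cut with TALENs in exon 2 of IL2RG, followed by somatic cell nuclear transfer, so each is the clone of a cell colony. The colonies carried different deletions, and the sources used here give neither the colony nor the age of the arrayed pigs. Most KO pigs of the study had no thymus, and the KO arrays come from the few animals in which a small and atrophied one was found. IL2RG codes for the common gamma chain, a subunit shared by the receptors for IL-2, IL-7 and other cytokines.

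The B cell receptor is a membrane-bound immunoglobulin that signals through a pair of partner chains, CD79A and CD79B. When antigen binds, the kinase SYK docks on the phosphorylated tails of these partners and phosphorylates the adaptor BLNK, which gathers the enzymes that raise calcium and activate transcription. MS4A1 (CD20) is a surface protein of mature B cells, and CD72 is an inhibitory co-receptor of the B cell. Class-switched heavy chains such as IgG are made by memory B cells and, in the largest amounts, by plasma cells. The thymus is mainly an organ of T cell development, with a small resident population of B cells in its medulla. SYK is also used by macrophages and by other cells that carry Fc receptors.

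All 20 probes were measurable enough to be tested, and 17 of them were well above background on all 4 arrays. The probes A_72_P710175 and A_72_P710258 of LOC396781 and the MS4A1 probe each missed this on 1 KO array. They were tested only because both WT arrays were well above background, which favours a fall in KO. In KO thymus, 19 of the 20 probes were called lower and 1, the BLNK probe, was called higher. With the test limited to probes well above background on all 4 arrays, 16 were called lower and 1 higher. A call means a Benjamini-Hochberg adjusted p under 0.05 in limma, over all 31959 probes tested, with a change of at least 2-fold. The background is high in this comparison. Across the array 13.0% of the tested probes were called lower and 21.0% higher. Both KO arrays were below both WT arrays at 19 member probes, against 41.0% of all tested probes, and above them at 1 member probe, against 37.7% of all. The median log2 fold change (KO minus WT) was −7.25 over the 20 member probes and −0.06 over all tested probes. Since 13 of the 20 probes belong to 1 gene, these counts describe probes, not independent genes. By gene, 5 of the 6 were lower and 1 was higher. In whole tissue, fewer cells of a type and less RNA per cell cannot be told apart.

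The arrays of 1 genotype resembled each other closely, with a Pearson's r over tested probes of 0.994 between the KO arrays and 0.984 between the WT arrays, and of 0.886 to 0.919 between genotypes. KO replicate 1 and WT replicate 2 shared a slide, as did KO replicate 2 and WT replicate 1. IL2RG itself, the targeted gene, was lower in KO at both of its probes, with log2 fold changes (KO minus WT) of −4.38 and −3.41 (limma, adjusted p = 0.00208 and 0.00256). The position of these probes relative to the cut exon is not given in the sources used here, so they check the labels only as far as the transcript as a whole was reduced.

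The immunoglobulin heavy chain showed the deepest falls among the 6 genes. Its signals are given on the normalised log2 scale, where the 75th percentile of each array is 0. At the brightest of its probes, A_72_P152696, KO replicates 1 and 2 read −1.005 and −1.08, and WT replicates 1 and 2 read 4.28 and 5.08. The log2 fold change, KO minus WT, was −5.72 ± 0.309 (standard error, 2 arrays a genotype), so that WT was 52.6-fold higher (limma, adjusted p = 0.00205). Both KO arrays were thus far below both WT arrays, and the gap of 5.28 between the nearest KO and WT arrays was much wider than the 0.80 between the WT arrays.

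A_72_P710175 gave the largest measured difference of the gene. KO replicates 1 and 2 read −6.23 and −6.98, and WT replicates 1 and 2 read 1.86 and 2.96. The log2 fold change was −9.02 ± 0.470, with WT 518-fold higher (limma, adjusted p = 0.00205). The second KO array was not well above background at this probe, so the size of this difference is uncertain. A_72_P710258 came next, with KO arrays at −6.71 and −5.33 and WT arrays at 2.06 and 3.05, a log2 fold change of −8.57 ± 0.594, and its first KO array was not well above background. Its KO arrays were 1.39 apart, the widest such gap among the 13 probes. The probes A_72_P710376, A_72_P710390, A_72_P710171, A_72_P710344, A_72_P710424, A_72_P710246, A_72_P715165 and A_72_P745956 followed in this order, with log2 fold changes from −8.46 to −7.75. Over the 13 probes the WT signals ran from 1.54 to 4.28 in WT replicate 1 and from 2.63 to 5.08 in WT replicate 2. The KO signals ran from −6.71 to −1.005 in KO replicate 1 and from −6.98 to −1.08 in KO replicate 2. No probe had a KO array that reached a WT array. The median log2 fold change was −8.09, or 273-fold, and all 13 probes were called lower with an adjusted p of at most 0.00224 in limma.

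**Figure D1:**
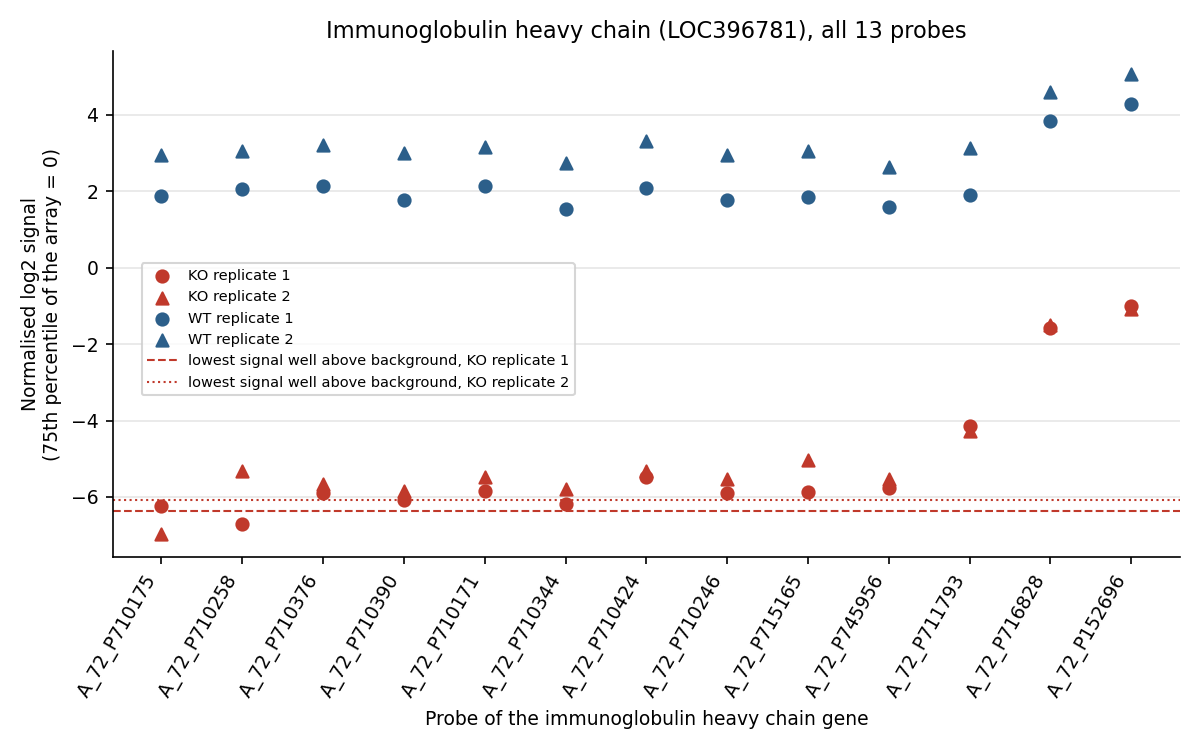
Normalised log2 signal (vertical axis, 75th percentile of the array = 0) of the 13 immunoglobulin heavy chain probes, ordered from the largest to the smallest fall. Points are single arrays, red for KO and blue for WT, and the red lines mark the lowest signal that was well above background on each KO array. The WT arrays lie between 1.54 and 5.08 and the KO arrays between −6.98 and −1.005, with 10 probes close to the red lines in KO.

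How far the gene fell depended on how its low KO signals were treated. At 10 of the 13 probes both KO arrays lay within 4-fold of the lowest signal that was well above background on that array, or below it. On the linear scale these KO signals were 5.51 to 21.2 intensity units, while the same probes read 1801 to 6933 in WT. Their log2 fold changes of −9.02 to −7.75 are therefore ratios to signals near the detection limit. At the other 3 probes at least 1 KO array was more than 4-fold above that signal. A_72_P711793 fell by 6.74, with intensities of 42.9 and 35.8 in KO and 2338 and 6115 in WT. A_72_P716828 fell by 5.77, with 254.5 and 243.9 in KO and 8825 and 16973 in WT. With the normexp background correction, which was run with an offset of 50 intensity units and so raises all low signals, all 13 probes were still called lower, with log2 fold changes of −6.03 to −5.33 and a median of −5.64, or 49.8-fold. An offset of this size by itself narrows ratios to KO signals as low as these.

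The WT arrays also differed from each other at this gene. WT replicate 2 was above WT replicate 1 at all 13 probes, by 0.78 to 1.24 on the log2 scale, and by at least 2-fold at 10 of them. Among all tested probes 2.42% were at least 2-fold higher in WT replicate 2. The gap between WT arrays was not shared by the whole B cell group. WT replicate 2 minus WT replicate 1 was −0.09 at CD79A and −0.58 at MS4A1. Leaving out WT replicate 1 gave a median log2 fold change of −8.72 for the heavy chain, or 420-fold, and leaving out WT replicate 2 gave −7.47, or 178-fold. All 13 probes were called lower either way. Within the slides, the differences of the heavy chain probes ran from −9.77 to −6.08 on slide 1 and from −8.84 to −5.34 on slide 2.

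Of the tested probes across the array, 89 (0.278%) fell at least as much as the heavy chain probe with the smallest fall. All 13 heavy chain probes are among the 89 by definition, since 1 of them set the limit. The named genes among the rest were 10, and included RAG1 and RAG2, which cut the antigen receptor genes of developing T and B cells, and PTCRA, the partner chain of the pre-T cell receptor. Their log2 fold changes were −8.27 to −7.68 over 3 probes of RAG1, −7.76 at 1 probe of RAG2, which was well above background on 1 of the 2 KO arrays, and −7.74 to −7.65 over 2 probes of PTCRA. Among the other named genes were MYL1 (−7.24 to −5.84 over 7 probes), SLC22A6 (−7.47) and LOC396700 (−6.55). The remaining ones were LOC100302368 (−6.27 to −6.12 over 4 probes), CD1.1 (−6.13 to −6.09 over 2 probes), CD163L1 (−6.00) and AVP (−6.00). The heavy chain probes ranked between 5 and 89 from the lowest. None of the 13 can be assigned here to a constant region subclass, since the probe sequences were not among the references used.

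**Figure D2:**
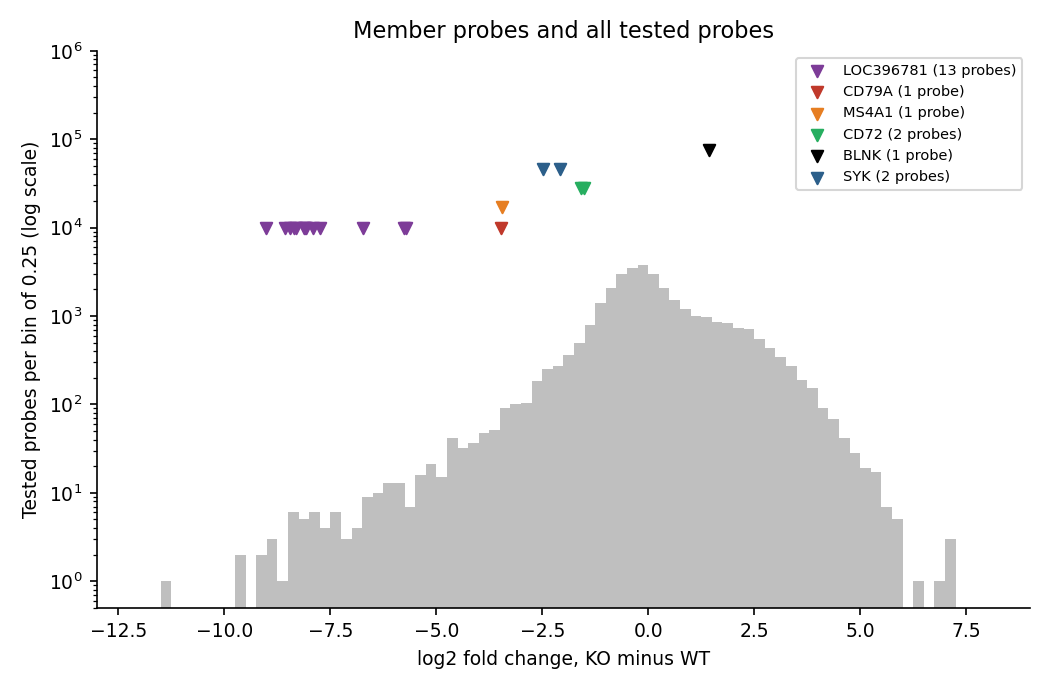
Number of tested probes (vertical axis, log scale) by log2 fold change, KO minus WT, in bins of 0.25, with the 20 member probes as triangles above; the height of a triangle only separates the genes. The heavy chain probes sit in the far lower tail from −9.02 to −5.72, while CD72 and BLNK lie within the bulk of changed probes.

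CD79A, the signalling partner of the surface immunoglobulin, was lower in KO. KO replicates 1 and 2 read −3.58 and −3.78, and WT replicates 1 and 2 read −0.16 and −0.25. The log2 fold change was −3.47 ± 0.166, with WT 11.1-fold higher (limma, adjusted p = 0.00205). The arrays of each genotype were within 0.20 of each other, and the gap between the genotypes was 3.33. All 4 arrays were well above background. MS4A1, the CD20 surface marker, was also lower in KO. KO replicates 1 and 2 read −5.59 and −6.03, and WT replicates 1 and 2 read −2.07 and −2.65, a log2 fold change of −3.45 ± 0.286, or 10.9-fold (limma, adjusted p = 0.00277). KO replicate 2 was not well above background here, so the fold is uncertain, and its intensity was 10.7 units, against 148 and 111 in the WT arrays. With each array left out in turn the log2 fold change ran from −3.57 to −3.37 at CD79A and from −3.74 to −3.16 at MS4A1. These fits kept the filter set on all 4 arrays. The MS4A1 probe passed it through its WT arrays alone, so they do not test that selection. With the normexp correction both genes were still called lower, but the log2 fold changes were −2.52 for CD79A and −1.47 for MS4A1.

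CD72, the inhibitory co-receptor, had the smallest falls of the genes that were lower. At its brighter probe, A_72_P509415, KO replicates 1 and 2 read 1.71 and 1.74, and WT replicates 1 and 2 read 2.84 and 3.62. The log2 fold change was −1.51 ± 0.303, or 2.84-fold (limma, adjusted p = 0.0186). At A_72_P197872 the KO arrays read −1.18 and −1.08 and the WT arrays 0.11 and 0.81, a log2 fold change of −1.59 ± 0.281, or 3.01-fold (limma, adjusted p = 0.0133). The probes gave nearly the same fall, and at each of them WT replicate 2 was the highest array, above WT replicate 1 by 0.78 and 0.70. The call held without either WT array but was lost without either KO array. Without KO replicate 1 the adjusted p of limma was 0.0848 at the brighter probe and 0.0710 at the other, and without KO replicate 2 it was 0.0852 and 0.0650.

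SYK and BLNK act next to each other below the receptor, and their probes moved in opposite directions. SYK, the kinase, was lower in KO at both probes. At A_72_P232627 KO replicates 1 and 2 read 2.54 and 2.55, and WT replicates 1 and 2 read 4.69 and 4.59, a log2 fold change of −2.09 ± 0.152, or 4.27-fold (limma, adjusted p = 0.00236). At A_72_P186906 the KO arrays read −2.67 and −2.66 and the WT arrays −0.35 and −0.04, a log2 fold change of −2.47 ± 0.181, or 5.55-fold (limma, adjusted p = 0.00237). The KO arrays agreed to within 0.02 at each probe, and every array left out in turn kept both calls.

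BLNK, the adaptor that SYK phosphorylates, was the only one of the 6 genes that was higher in KO. KO replicates 1 and 2 read 1.68 and 1.95, and WT replicates 1 and 2 read 0.79 and −0.02. The rise was 1.43 ± 0.324, or 2.70-fold (limma, adjusted p = 0.0251). The lowest KO array was 0.90 above the highest WT array, little more than the 0.81 between the WT arrays. Like that of CD72, this call was lost when a KO array was left out, with an adjusted p of 0.0799 without KO replicate 1 and 0.120 without KO replicate 2 in limma. Within the slides the rise was 1.71 on slide 1 and 1.16 on slide 2.

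**Figure D3:**
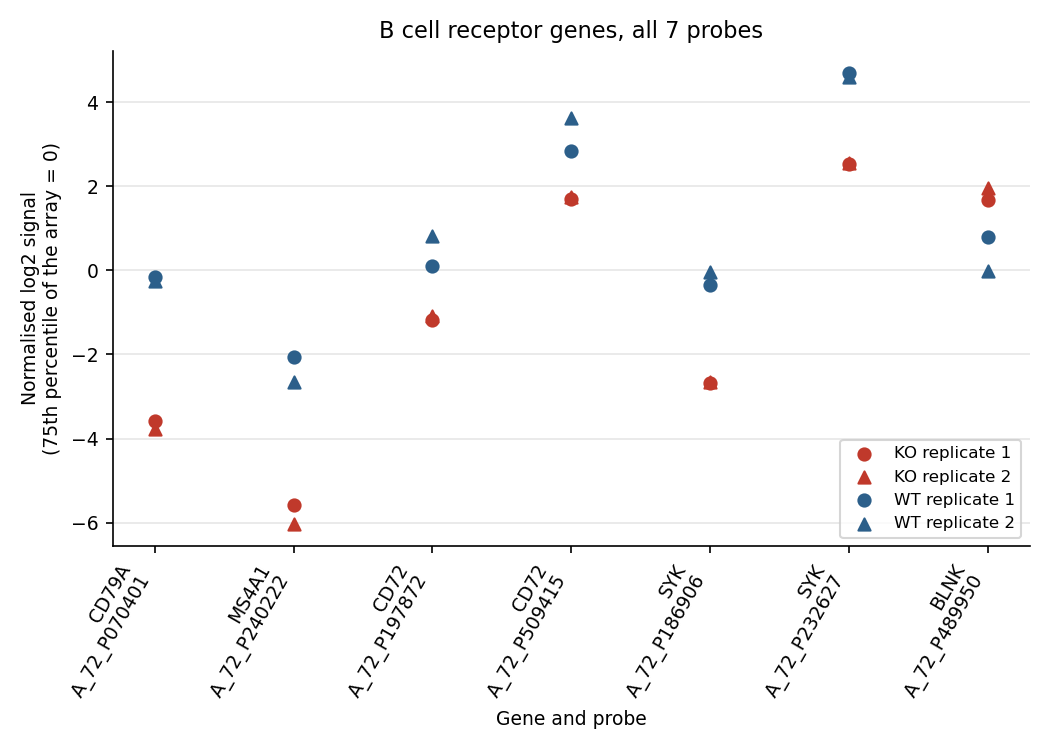
Normalised log2 signal (vertical axis, 75th percentile of the array = 0) of the 7 probes of CD79A, MS4A1, CD72, SYK and BLNK. Points are single arrays, red for KO and blue for WT; the KO arrays lie below the WT arrays at 6 probes and above them at the BLNK probe, and the groups overlap at none.

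Other genes of B cell receptor signalling were measured in part. Of a list of 46 genes, 19 had a named probe and were tested, 27 were not, and each was represented by its brightest probe. In KO thymus 3 were called higher, 0 were called lower and 16 were not called by limma, against 21.0% of all tested probes called higher and 13.0% called lower, and their median log2 fold change was −0.10. At an unadjusted p under 0.05 in limma, 5 of the genes were lower (NFATC1, CHUK, FOS, FYN and IKBKG) and 5 were higher (BTK, NFATC2, NFKB1, PPP3CA and JUN). The share of all tested probes at this looser threshold was not computed, so these 2 counts cannot be weighed against the array. The t-test that the study names, with Bonferroni adjustment, called no probe of the array in either direction, and so none of these genes. In limma PPP3CA was called higher at 2 of its 3 tested probes, with a smallest rise of 0.98. The genes that limma called higher are not restricted to B cells. They were NFKB1, a subunit of the NF-kappaB transcription factor (1.27 ± 0.185, adjusted p = 0.00834), PPP3CA, the catalytic subunit of calcineurin (1.37 ± 0.213, adjusted p = 0.00981), and NFATC2, a transcription factor that calcineurin activates (1.36 ± 0.292, adjusted p = 0.0219), all by limma. All 3 calls were lost without either KO array, and that of NFATC2 also with normexp (0.58).

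The kinase BTK, which is recruited to BLNK and is also present in myeloid cells, was not called. Its KO arrays read −2.29 and −1.83 and its WT arrays −3.05 and −4.36, with a log2 fold change of 1.64 ± 0.491 (limma, adjusted p = 0.0513). With the slide as a block it was called higher (limma, adjusted p = 0.0220). NFATC1 (−0.88, adjusted p = 0.0120) and CHUK (−0.89, adjusted p = 0.0421) passed the p threshold in limma but not the fold of 2. The co-receptor subunit CD81, which is found on many cell types, had a log2 fold change of −0.03, with an adjusted p of 0.905 in limma. CD79B, CD22, LYN, PLCG2 and PTPN6 had no named probe and were not tested. Of the genes that handle immunoglobulin outside B cells, FCGRT, the neonatal Fc receptor, had a log2 fold change of 0.82 (limma, adjusted p = 0.0197), under the fold of 2, and was called higher with quantile normalization and in the deposited values (both 1.02). PIGR, which carries IgA and IgM across epithelia, was not well above background in WT. Set against the lowest signal well above background on the WT arrays, it was at least 1.09-fold higher in KO, a bound under the fold of 2. The measured difference passed in limma (adjusted p = 0.0283), but not with quantile normalization, with normexp or without either KO array.

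Most ligands that act on B cells were higher in KO. Of 13 such genes 8 were tested, 6 were called higher in KO and none lower, and the list had a median change of 1.59 (log2). By comparison, limma called 21.0% of all tested probes higher and 13.0% lower. TNFSF13B (BAFF), the survival factor of mature B cells, read −0.72 and −0.71 in KO thymus, against −2.31 and −3.04 in WT thymus, a rise of 1.96 ± 0.288 (limma, adjusted p = 0.00858). TNFSF13 (APRIL), which sustains plasma cells, read 0.88 and 1.07 in KO thymus, against −1.56 and −2.94 in WT thymus, a rise of 3.22 ± 0.493 (limma, adjusted p = 0.00943). For both ligands the 2 KO arrays lay above the 2 WT arrays, as they did at 37.7% of all tested probes. The other rises were 2.27 for IL4, 1.62 for IL6, 1.56 for CXCL12 and 1.01 for IL7. Without either KO array the calls of CXCL12 and IL7 were lost, which left 4 genes called higher. IL7 lost its call without WT replicate 2 as well. IL7 was under the 2-fold limit with quantile normalization (0.80), with scaling to the median (0.76) and in the deposited log2 values (0.85). With normexp IL4 (0.72), IL6 (0.89) and IL7 (0.56) were under it. CD40LG, with a log2 fold change of 0.59, was not called. The probes of LTA disagreed, at −0.17 for the brighter one, which was not called, and 1.65 for the other, which was called higher.

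SYK also binds adaptors that carry the same tyrosine motif (ITAM) outside B cells. Of a list of 9 such adaptors, Fc receptors and related genes 6 were tested, 5 were called higher and 1 lower, with a median of 1.78. Over all tested probes, 21.0% were called higher and 13.0% lower. The tested adaptors went both ways, with FCER1G and TYROBP called higher and CD247 called lower. FCER1G, the gamma chain of the Fc receptors, rose by 1.65 and TYROBP (DAP12) by 1.87. Both calls were lost without either KO array (limma, adjusted p = 0.0847 and 0.138 for FCER1G, 0.0565 and 0.0733 for TYROBP), and that of FCER1G also with no filter on dim probes (0.0551). The Fc receptors FCGR1A and FCGR3A rose by 2.71 and 2.44, and the lectin receptor CLEC7A by 1.69, or 0.89 and under the fold of 2 with normexp. FCGR3A lost its call without KO replicate 2, so that 3 genes of the list were called higher without KO replicate 1 and 2 without KO replicate 2. CD247, the zeta chain of the T cell receptor, was called lower. Its KO arrays read 2.96 and 2.98 and its WT arrays 5.85 and 6.08, a change of −2.997 ± 0.168 on the log2 scale (limma, adjusted p = 0.00205). SYK itself was lower in KO.

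Marker genes of other cells moved at the same time, in a comparison where 13.0% of all tested probes were called lower and 21.0% higher. All 12 tested thymocyte markers of 16 were called lower, with a median of −2.58, and their summed signal (log2) was 4.84 to 4.89 in KO and 7.42 to 7.92 in WT. Of 13 macrophage markers 10 were tested and 9 were called higher (8 without KO replicate 2), with a median of 2.29 and a summed signal of 8.15 to 8.46 in KO and 5.81 to 6.18 in WT. SIRPA, the macrophage marker that was not called, rose by 0.76 at its brighter probe, and its other probe was called higher (2.01). Of 23 further B lineage markers only 3 were tested. VPREB1, a part of the surrogate light chain of early B cells, was called lower, CD40 was called higher and POU2F2 was not called. The KO arrays read −1.45 and −1.30 for VPREB1 and the WT arrays 3.25 and 3.17, and the log2 fold change was −4.58 ± 0.158 (limma, adjusted p = 0.00205). CD40, a receptor of B cells that macrophages, dendritic cells and thymic epithelium carry too, rose by 2.10. The median of the 3 was 0.27, and their summed signal was 5.54 to 5.66 in KO and 4.24 to 4.49 in WT, a sum in which CD40 is the brightest. Of 11 plasma cell markers only XBP1 was tested, a factor used by secretory cells of many kinds, and it rose by 1.502.

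Among smaller lists, 1 of 2 dendritic cell markers (XCR1), 1 of 2 follicular dendritic cell markers (CLU), 1 of 2 thymic epithelial markers (KRT8) and 2 of 3 NK cell markers (KLRK1 and NKG7) were called higher, and none was called lower. Across the array 21.0% of the tested probes were called higher and 13.0% lower. The remaining NK cell marker, GZMB, went the other way but was not called with all 4 arrays. Its log2 fold change was −0.76 at the brighter probe and −0.18 at the other. At the brighter probe both KO arrays were below both WT arrays, as at 41.0% of all tested probes. Without WT replicate 1 the brighter GZMB probe gave −1.14. XCR1 and NKG7 lost their calls with scaling to the median (0.87 and 0.89), without either KO array and without WT replicate 2. IRF7, the other dendritic cell marker, was called higher with normexp (1.17), in the deposited values (1.28), with an intensity trend (1.17) and without WT replicate 1 (1.73). The part of these cell types in the heavy chain, CD79A, MS4A1, CD72, SYK and BLNK values was not tested. The labelled tissue was borne out in WT, where the thymocyte genes CD1D, CCR9, RAG1 and PTCRA read 2.58 to 4.40. In KO the same genes read −5.70 to −0.32.

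**Figure D4:**
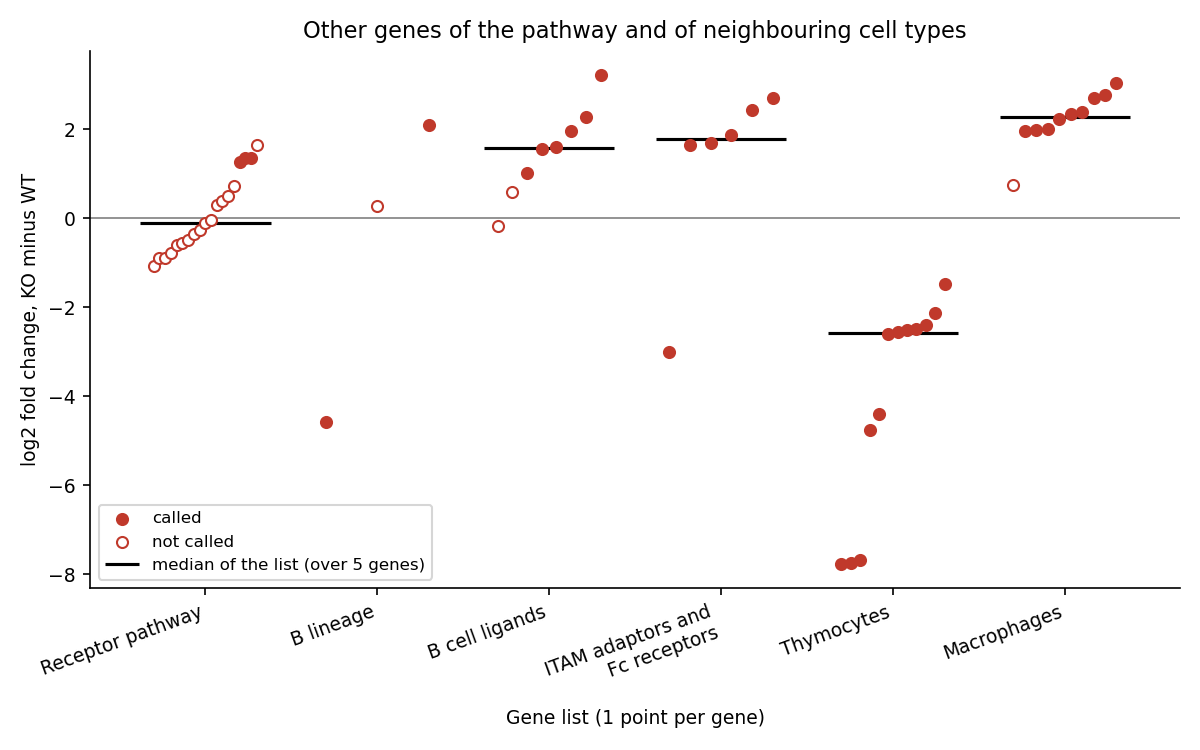
Log2 fold change, KO minus WT (vertical axis), of the tested genes of 6 lists, 1 point a gene by its brightest probe, filled where called in limma and open where not. Bars mark medians of lists with over 5 genes, −0.10 for the receptor pathway, 1.59 for the ligands, 1.78 for the ITAM adaptors and Fc receptors, −2.58 for thymocytes and 2.29 for macrophages.

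The named genes with the pattern most like each of the 6 were found by the root mean square distance between centred log2 signals over the 4 arrays. For the heavy chain they were MYL1 (distance 0.187) and LOC100302368 (0.266). CD79A and MS4A1 shared the same nearest pair, PGAM2 (0.101 and 0.185) and RGN (0.119 and 0.144). The nearest genes were SFXN1 (0.0652) and PVRIG (0.0693) for CD72, and H2AFZ (0.0811) and BIRC5 (0.0872) for SYK. BLNK was closest to SERINC2 (0.0281) and CFAP161 (0.0366). With 4 arrays in 2 groups this measure reflects mainly the size of the genotype difference.

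Across the ways of processing, no member probe changed direction. All 20 kept their calls with quantile normalization, with scaling to the median, with the normexp correction, and with slide or replicate number as a block in limma. The 17 probes that the authors' deposited log2 values hold were called in the same direction there as well. Those values are recorded as quantile normalized, so they are not a separate check from quantile normalization. The test that the study names for its arrays, a plain t-test with Bonferroni adjustment, called none of the 20 probes and none of the array's probes on these values. With 2 arrays a genotype, an exact two-sided permutation test of a single probe cannot give a p below 0.333. Every p above therefore rests on the spread that limma shares across probes, and on arrays whose relation to each other beyond being separate samples is not given in the labels.

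**Figure D5:**
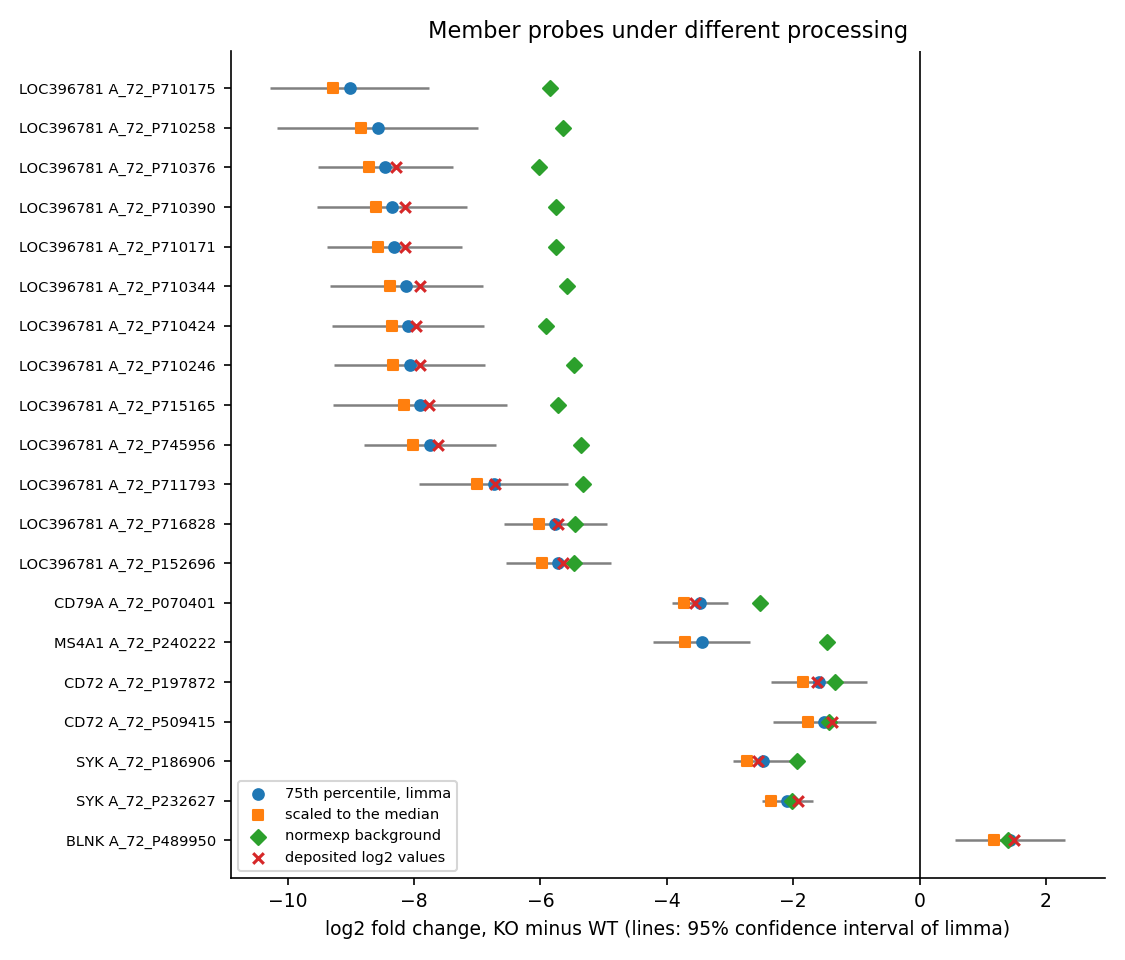
Log2 fold change, KO minus WT (horizontal axis), of the 20 member probes under 4 ways of processing; lines are the 95% confidence intervals of limma for the first of them. All values lie on the same side of 0 for a probe, and with normexp the heavy chain probes gather between −6.03 and −5.33.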

How the data were processed

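Thymus RNA of 2 KO and 2 WT pigs was measured on Agilent arrays in 1 colour. The authors deposited, per array, the spot intensity from Feature Extraction 11.0.1.1, background-subtracted and not normalised between arrays, with flags for spots above background. The authors also deposited log2 values of probes above background on all arrays. Within every array these tracked the log2 scanner intensities, the lowest Pearson correlation being 0.9998. The median of the deposited values was 8.49 on each array. The correlation was taken array by array, so neither it nor the shared median shows which normalization was used. The direction of the deposited values follows the scanner files, and their recorded measure is quantile normalized log2 signal. With quantile normalization of the scanner values and in the deposited ones, the brighter CD72 probe gave −1.38 and BLNK 1.49. CD79A gave −3.63 and −3.56. The deposited values are therefore not a separate check from quantile normalization.

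Control and outlier spots were left out. Processed signals were divided by the 75th percentile of their array and log2 transformed. Probes were kept if 1 genotype or both had all arrays well above background (31959 probes), and were fitted with lmFit and eBayes of limma 3.58.1 in R 4.3.3, with Benjamini-Hochberg adjustment. Code for this step was tested on simulated data. Tables and plots used Python 3.11.15, pandas 2.3.3 and matplotlib 3.10.9. No spot was saturated, and the number of arrays limits the precision.

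RefSeq accessions gave names to 6684 probes (15.3%) of 3020 genes, through a RefSeq table of the Sscrofa11.1 assembly. Groups came from the genotype labels. All probes of the 6 genes are named, with the tested genes of the pathway, ligand, adaptor and cell type lists, each by its brightest tested probe, and the closest genes by pattern. Members and lists were chosen with earlier results of these data known. Genes without a named probe were not analysed here, and 1 gene of the lists is not reported here and is in none of their counts. Alternatives were other normalizations, background corrections, filters, blocks and tests, and each array left out. The methods describe labelling with 2 dyes, while the labels and files hold 1.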

Additional observations from a re-analysis of the deposited data

How the results depend on the processing

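No member probe changed direction under any alternative that gave it a value; the deposited values and the filter on all 4 arrays held 17 of the 20. With the study's t-test (called the methods' t-test) and Bonferroni correction no probe of the array was called (0), so the brightest probes of LOC396781 (−5.72), CD79A (−3.47), MS4A1 (−3.45), CD72 (−1.51), BLNK (1.43) and SYK (−2.09) lost their calls with the same fold changes, and 0 member probes and 0 pathway genes were called in either direction. With Benjamini-Hochberg adjustment of that test 1489 probes were called, 2 of the members were lower and 0 higher, LOC396781 (−5.72), MS4A1 (−3.45), CD72 (−1.51) and BLNK (1.43) lost their calls, and 0 pathway genes were called. Unadjusted, that test called 8609 probes and lost CD72 (−1.51) and BLNK (1.43), leaving 0 member probes higher. With an array left out, CD72 ranged from −1.90 to −1.11, BLNK from 1.03 to 1.84, the member probes called higher from 0 to 1, the calls across the array from 6090 to 12713, and the pathway genes called higher from 0 to 5 and lower from 0 to 3. Without KO replicate 1 or 2 the array gave 6423 or 6090 calls against 10882, and 3 member probes lost theirs; the pathway had 0 genes called higher without either KO array and 5 without WT replicate 1, which also gave 3 called lower. The normexp correction gave 6621 calls. Scaling to the median shifted the median of all tested probes by −0.26, gave 4 pathway genes lower, and turned the share of higher calls from 61.7% to 47.9%. The deposited values gave 1 pathway gene lower. CD81 changed sign with quantile normalization (0.22), normexp (0.0082), the deposited values (0.21) and without WT replicate 2 (0.11; −0.16 without WT replicate 1), and was called in none of them.

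Arrays of the same replicate number deviated in opposite directions (r = −0.29), and those of the same slide together (r = 0.29), which with 2 arrays a genotype is the same fact. The numbers are not known to pair the animals. The replicate block gave 10658 calls, and the slide block, which is the same fit as the crossed pairing, 11136. Neither block changed the call of a member probe.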
